A study of Mus musculus with 20 samples.

Results

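Prostate gene expression was compared between FVB/NJ and DBA/2 mice, named FVB/N and DBA/2 below. The comparison took in every array labelled with either strain, 8 of the 20 arrays of a survey of 5 inbred strains. Each strain was represented by 4 pools of 3 male mice aged 8 to 9 weeks, 12 mice per strain. The labels name no transgene, deletion or treatment for either strain. For each pool, equal amounts of RNA from 4 lobes (dorsal, lateral, ventral and anterior) were combined, amplified, and hybridized against a common reference made from the RNA of all strains on a 2-colour cDNA array printed with prostate transcripts. FVB/N mice were bought from the Jackson Laboratory and DBA/2 mice (substrain DBA/2NCrl) from Charles River Laboratories. Strain and supplier can therefore not be told apart in this comparison. The 12 arrays of the other 3 strains are read below beside it. Of those strains, BALB/c also came from Charles River Laboratories and the others from the Jackson Laboratory. All levels below are log2 ratios of a pool to that reference, where 0 is the level of the reference, and all differences are FVB/N minus DBA/2 on the log2 scale.

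The mouse prostate is a set of paired lobes in which luminal epithelial cells, under the control of androgens, secrete proteases, protease inhibitors, lipid carriers and small proteins into the seminal fluid. The epithelium rests on basal cells and on a stroma of smooth muscle, fibroblasts and matrix, and the anterior lobe lies against the seminal vesicle, an organ with abundant secretory transcripts of its own. Inbred strains are fixed for different alleles at many loci, the histocompatibility complex among them: FVB/N carries haplotype q and DBA/2 haplotype d. In whole tissue, fewer cells of a type and less RNA per cell cannot be told apart.

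The 8 arrays had medians close to 0 and each strain had its sample labelled with Cy3 in pools 1 and 4 and with Cy5 in pools 2 and 3. Across elements, arrays of the same strain and dye had a median correlation of 0.530, those of the same strain and opposite dyes 0.270, an FVB/N with a DBA/2 array 0.121 when labelled alike, and -0.197 when labelled oppositely. These correlations describe elements, which are not independent replicates. Each dye was used equally in both strains. A difference between the dyes passed at an adjusted p under 0.05 (limma) in 905 of 11159 elements, 18 of them also called between the strains. No element showed a different strain effect with each dye at an adjusted p under 0.05 (limma, 455 elements at an unadjusted p under 0.05). With so few arrays per strain and dye, that test has little power. The median SD of an element among the 4 pools was 0.174 in FVB/N and 0.146 in DBA/2.

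Of 11159 array elements tested, 416 (3.73%) differed between the strains at an adjusted p under 0.05 (limma, Benjamini-Hochberg over all elements), 196 (1.76%) higher and 220 (1.97%) lower in FVB/N. With the pool number as a block, which holds the dye as well, 661 elements passed, and without DBA/2 pool 2 the count was 253. The median difference of the 416 elements was 1.64-fold, the smallest 1.29-fold and the largest 13.5-fold; 119 exceeded 2-fold (48 higher, 71 lower) and 26 exceeded 4-fold (12 higher, 14 lower). In 411 of the 416 all pools of one strain lay above all pools of the other, which was so for 10.9% of all elements. Counting one element for each of 5820 genes, 212 genes (3.64%) passed, 104 (1.79%) higher and 108 (1.86%) lower in FVB/N. The median difference over all elements was -0.0035.

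**Figure D1:**
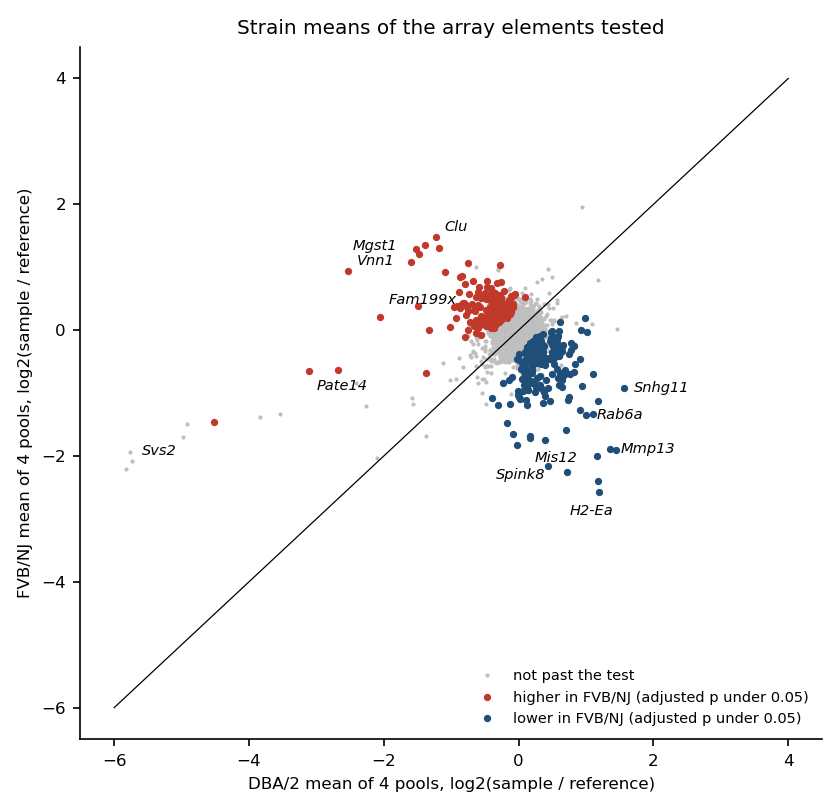
Mean log2 ratio to the common reference in FVB/N (vertical axis, 4 pools) against DBA/2 (horizontal axis, 4 pools) for each element tested, with the line of equality. The 196 elements higher in FVB/N lie above the line and the 220 lower ones below it, and the elements of Svs2 lie far to the left.

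Among called genes, the widest difference lay in the class II region of the histocompatibility complex. H2-Ea encodes the alpha chain and H2-Eb1 the beta chain of the class II molecule I-E, which presents peptides to CD4+ T cells, and mice of haplotypes b and q are known not to make the I-E alpha chain. H2-Ea was at -2.73, -2.12, -2.30 and -3.12 in FVB/N pools 1 to 4, against 1.35, 1.5, 0.60 and 1.31 in DBA/2 pools 1 to 4. No pool overlapped, and H2-Ea was 13.5-fold lower in FVB/N (-3.76, standard error 0.24, adjusted p = 4.97e-06 from limma). A second spot of the same sequence differed by -3.59.

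H2-Eb1 was at -1.70, -1.84, -1.40 and -1.95 in the FVB/N pools, against 0.30, 0.35, -0.22 and 0.23 in the DBA/2 pools, a difference of -1.89 (standard error 0.15, adjusted p = 3.58e-05 from limma). The other strains of the survey, C57BL/6, 129X1/Sv and BALB/c, ordered differently for the alpha and the beta chain. H2-Ea averaged -3.56 in C57BL/6 and -3.27 in 129X1/Sv but 1.17 in BALB/c, so that FVB/N lay with C57BL/6 and 129X1/Sv, which carry haplotype b, and DBA/2 with BALB/c, which carries haplotype d. H2-Eb1 averaged 0.29, 0.22 and 0.06 in these 3 strains, close to DBA/2, and FVB/N alone was low. The study reports that, for the H2 genes as a family, expression was not correlated with haplotype.

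H2-Q1, a class I gene, went the other way: its levels were 0.30, 0.41, 0.30 and 0.43 in FVB/N, against -0.63, -0.86, -0.68 and -0.12 in DBA/2, and it was 1.91-fold higher in FVB/N (adjusted p = 0.00371 from limma). Class I genes are close in sequence and a cDNA element cannot tell them fully apart. Of the 9 measured genes of antigen presentation, 1 was higher and 2 were lower in FVB/N (33.3% called, against 3.64% of all genes), and the median difference was -0.13. This list and those below were written with earlier results of these data known. Their shares called may be raised by that choice and have no test. The light chain of class I, B2m, differed by 0.02 (adjusted p = 0.963), and the proteasome subunits Psmb8 and Psmb9 by -0.38 and -0.20 (adjusted p = 0.245 and 0.500, limma). None of 14 measured interferon-stimulated genes passed.

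The promoter of H2-Eb1 is shown because class II genes are known to share a conserved Y box, which binds the factor NF-Y. It covers the bases just before and after the RefSeq start (GRCm38.p6, chr17:34305617-34305916, plus strand), with the match to CTGATTGG in capitals, 62 bases before the start.
H2-Eb1: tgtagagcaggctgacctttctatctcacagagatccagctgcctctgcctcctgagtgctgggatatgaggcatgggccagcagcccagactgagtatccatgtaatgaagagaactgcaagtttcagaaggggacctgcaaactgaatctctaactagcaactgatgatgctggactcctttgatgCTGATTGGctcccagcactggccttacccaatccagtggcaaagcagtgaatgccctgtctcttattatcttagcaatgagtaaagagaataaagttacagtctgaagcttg
This is the sequence of the reference mouse, C57BL/6J, and not of FVB/N or DBA/2. CTGATTGG or its reverse complement was found in 4.1% of 32851 promoters of the same length, and in those of 3 of the 20 genes with a RefSeq promoter among the 30 most different genes described here (H2-Eb1, Mis12 and Rab6a).

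**Figure D2:**
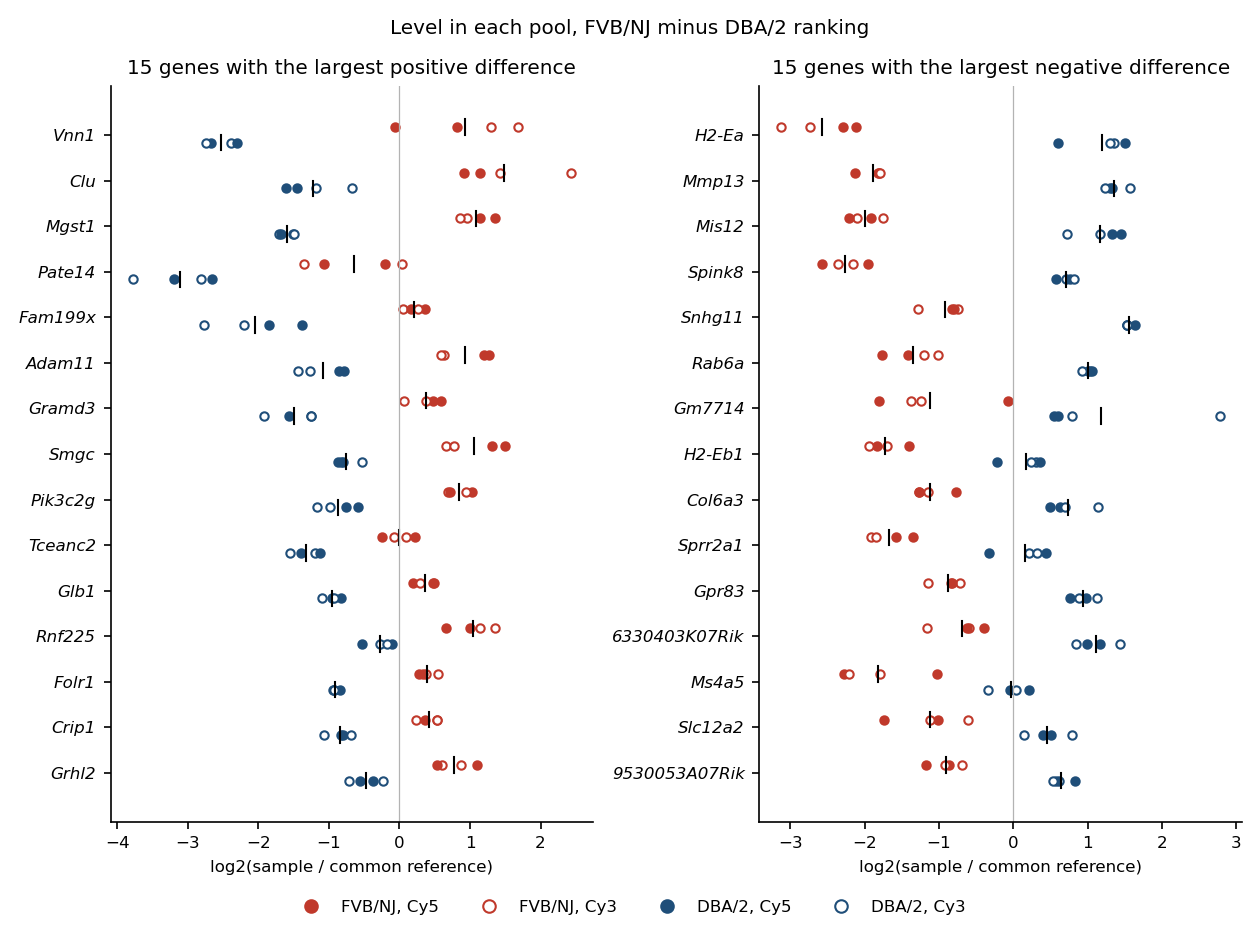
Level of each pool (horizontal axis, log2 ratio to the common reference) for the 15 genes with the largest positive (left) and the 15 with the largest negative (right) difference among genes past the test; FVB/N in red above DBA/2 in blue, filled for Cy5 and open for Cy3, with a black bar at each mean. The genes were chosen among those whose pools did not overlap, so the gap between strains is set by the choice; the spread within a strain is widest in Gm7714.

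Extracellular proteases and their inhibitors moved in both directions. Of 44 measured, 4 were higher and 6 lower in FVB/N (22.7% called, against 3.64% of all genes), and their median difference was -0.04 (over all 5820 genes, 0.0077). The largest was Mmp13, the interstitial collagenase known as collagenase 3. Mmp13 was at -1.83, -2.13, -1.81 and -1.80 in the FVB/N pools, against 1.57, 1.31, 1.33 and 1.23 in the DBA/2 pools. The difference was -3.25 (standard error 0.11, 9.54-fold lower in FVB/N, adjusted p = 1.09e-07 from limma), with an SD of 0.16 among FVB/N and 0.15 among DBA/2 pools. A second spot of the same sequence differed by -3.34. The strain means were -0.53 in C57BL/6, -1.19 in 129X1/Sv and -1.5 in BALB/c, so DBA/2 stood above all others.

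Mmp13 is known in other settings as a target of the factor AP-1, and its promoter is therefore printed (GRCm38.p6, chr9:7272264-7272563, plus strand, spanning the RefSeq start). Capitals mark TGACTCA, the reverse complement of the AP-1 motif TGAGTCA, 35 bases before the start.
Mmp13: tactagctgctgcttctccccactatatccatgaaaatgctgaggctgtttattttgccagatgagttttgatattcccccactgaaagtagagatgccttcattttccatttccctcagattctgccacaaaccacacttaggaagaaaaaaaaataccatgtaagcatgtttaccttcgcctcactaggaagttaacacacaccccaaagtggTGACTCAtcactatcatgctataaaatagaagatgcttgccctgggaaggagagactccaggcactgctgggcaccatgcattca
TGAGTCA or its reverse complement occurred in 5.2% of all 32851 promoters and in those of 3 of the 20 genes, Mmp13, Pate14 and Glb1.

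Other matrix metalloproteinases differed less. Mmp3, which encodes stromelysin 1, differed by -0.51 (adjusted p = 0.0349 from limma), a call that was lost without any one pool except FVB/N pool 4, with an adjusted p of up to 0.108. Mmp7, which encodes matrilysin, was at -1.43, -0.74, -1.41 and -0.71 in FVB/N and -1.94, -1.43, -1.43 and -1.55 in DBA/2, low in both strains, and its difference of 0.52 did not pass (adjusted p = 0.204, limma). Mmp2 and Mmp14 differed by -0.40 and -0.32 (adjusted p = 0.170 and 0.463). Adam11, a member of the ADAM family that lacks a functional protease site, was higher in FVB/N, at 0.63, 1.28, 1.20 and 0.58 against -1.44, -0.79, -0.85 and -1.27 in DBA/2 (2.01, standard error 0.20, adjusted p = 0.000145 from limma).

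Among inhibitors, Spink8, of the Kazal family of serine protease inhibitors, was at -2.36, -1.95, -2.58 and -2.16 in FVB/N, against 0.70, 0.58, 0.76 and 0.82 in DBA/2, 7.88-fold lower in FVB/N (adjusted p = 2.74e-07 from limma). Spint1, a membrane-bound inhibitor of serine proteases such as matriptase, was at -1.08, -0.88, -0.91 and -1.05 in FVB/N, against 0.48, 0.27, 0.44 and 0.33 in DBA/2, 2.57-fold lower (adjusted p = 1.26e-05). Its relative Spint2 differed by -0.42 (adjusted p = 0.200, limma). Wfdc2, a secreted protein with whey acidic protein domains, was lower (-0.92) and Tfpi, the inhibitor of the tissue factor pathway of coagulation, higher (0.95) in FVB/N (adjusted p = 0.000929 and 0.00186 from limma). The lysosomal cysteine protease gene Ctsh was 2.56-fold lower in FVB/N (adjusted p = 5.94e-05), whereas Ctsb, Ctsd and Ctsl differed by 0.09, 0.01 and 0.12, none past the test. The calls of Serpinh1 (0.56) and Serpinb6a (0.66) were lost without several pools: for Serpinh1 DBA/2 pools 1, 2 or 3, and for Serpinb6a FVB/N pools 1, 2 or 4 or DBA/2 pools 1, 2 or 3, with adjusted p up to 0.0646 and 0.0779 (limma).

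Genes of metabolism and detoxification were among those with the largest positive differences. Vnn1 encodes pantetheinase, which releases cysteamine and pantothenic acid from pantetheine. Its level was 1.30, 0.82, -0.06 and 1.68 in the FVB/N pools, against -2.40, -2.68, -2.31 and -2.74 in the DBA/2 pools, and it was 11.0-fold higher in FVB/N (3.46, standard error 0.30, adjusted p = 5.97e-05 from limma). The FVB/N pools spread more (SD 0.75) than the DBA/2 pools (SD 0.21), without overlap. BALB/c was also high (1.37) whereas C57BL/6 (-2.75) and 129X1/Sv (-3.07) were as low as DBA/2.

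Mgst1, a membrane-bound glutathione transferase that conjugates electrophiles and reduces lipid peroxides, was at 0.96, 1.36, 1.15 and 0.86 in FVB/N, against -1.71, -1.51, -1.68 and -1.5 in DBA/2. It was 6.4-fold higher in FVB/N (2.68, standard error 0.12, adjusted p = 2.77e-07 from limma), and 2 other elements differed by 2.81 and 2.70. Of 23 measured genes of glutathione metabolism and oxidant defence, 2 were higher and 1 was lower in FVB/N (13.0% called, against 3.64% of all genes), with a median of 0.13. The second was Gsto1, an omega-class glutathione transferase, at -0.84, -0.70, -0.75 and -0.45 in FVB/N against -1.25, -1.41, -1.33 and -1.5 in DBA/2 (adjusted p = 0.00430 from limma). Slc7a11, which imports cystine for glutathione synthesis, was the lower one (-0.80, adjusted p = 0.0207), and its call was lost without FVB/N pool 1 or 4 or DBA/2 pool 1 or 2 (adjusted p up to 0.06). The catalytic and modifier subunits of glutamate-cysteine ligase, Gclc and Gclm, differed by 0.19 and 0.20, and Gstp1 by -0.35, none past the test.

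The promoter of Mgst1 (GRCm38.p6, chr6:138140277-138140576, plus strand) is shown because genes of this class are often regulated through the antioxidant response element, whose core is TGACNNNGC. Capitals mark a match on the minus strand, 56 bases before the start. It is 1 of 2 RefSeq promoters listed for the gene.
Mgst1: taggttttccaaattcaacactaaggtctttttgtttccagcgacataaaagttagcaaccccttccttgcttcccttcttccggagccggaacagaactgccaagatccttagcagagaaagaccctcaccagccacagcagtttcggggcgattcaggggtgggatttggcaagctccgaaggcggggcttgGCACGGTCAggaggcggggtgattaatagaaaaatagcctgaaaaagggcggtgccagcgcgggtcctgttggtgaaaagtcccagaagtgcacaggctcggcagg
The core or its reverse complement occurred in 12.4% of all 32851 promoters, and among the 20 genes in Mgst1 alone.

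Mgst1 has Pik3c2g, a class II phosphoinositide 3-kinase, as its neighbour among the measured genes on chromosome 6, and both were higher in FVB/N. Pik3c2g was at 0.68, 1.02, 0.72 and 0.94 in FVB/N, against -1.17, -0.76, -0.59 and -0.99 in DBA/2 (1.72, adjusted p = 3.53e-05 from limma). Both had the same order of strains. FVB/N and 129X1/Sv were high (1.08 and 0.85 for Mgst1, 0.84 and 0.71 for Pik3c2g), and BALB/c, C57BL/6 and DBA/2 were low. Adh1, an alcohol dehydrogenase, was higher in FVB/N by 0.87 (adjusted p = 0.00188). Glb1, the lysosomal beta-galactosidase, was at 0.48, 0.19, 0.49 and 0.29 in FVB/N and -1.09, -0.96, -0.83 and -0.93 in DBA/2, 2.49-fold higher in FVB/N (adjusted p = 3.46e-05 from limma). Folr1, the folate receptor of epithelia, was at 0.37, 0.34, 0.28 and 0.55 in FVB/N and -0.93, -0.85, -0.95 and -0.92 in DBA/2, 2.46-fold higher in FVB/N (adjusted p = 1.47e-05).

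Secretory proteins of the prostate differed one by one. Of 18 measured, 3 were higher (Pate14, Smgc and Apod) and 2 lower (Spink8 and Wfdc2) in FVB/N, with a median of -0.08. This was 27.8% of the list, against 3.64% of all genes. Pate14, a small secreted protein of the Pate family, was at -1.35, -0.21, -1.07 and 0.04 in FVB/N, against -3.79, -3.20, -2.66 and -2.81 in DBA/2 (2.47, 5.53-fold higher in FVB/N, adjusted p = 0.00110 from limma). Both strains averaged below the reference and below C57BL/6 (1.18) and BALB/c (0.34). Smgc, a secretory protein known from the submandibular gland, was at 0.66, 1.31, 1.5 and 0.77 in FVB/N, against -0.83, -0.79, -0.88 and -0.53 in DBA/2, 3.52-fold higher in FVB/N (adjusted p = 0.000162). Apod, a lipocalin that carries small lipids, was at 0.30, 0.89, 0.42 and 0.66 in FVB/N and -0.75, -0.18, -0.35 and -0.42 in DBA/2, 1.99-fold higher in FVB/N (adjusted p = 0.00368 from limma).

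Other secreted products did not pass the test. Sbp, the gene of the spermine-binding protein, was at 0.09, -0.06, -0.07 and -0.60 in FVB/N and -0.25, 0.07, -0.19 and -0.84 in DBA/2, overlapping throughout (adjusted p = 0.775). Pbsn, which encodes the androgen-dependent protein probasin, differed by 0.48, Tgm4, the prostate transglutaminase, by -0.22, and Azgp1, a secreted class I-like protein, by -0.26 (adjusted p = 0.417, 0.534 and 0.498 from limma).

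Clu encodes clusterin, a secreted chaperone whose transcript is known to increase in the prostate when androgen is withdrawn. Clu was at 1.43, 1.14, 0.91 and 2.44 in the FVB/N pools, against -1.19, -1.45, -1.61 and -0.68 in the DBA/2 pools, with FVB/N pool 4 highest. It was 6.54-fold higher in FVB/N (2.71, standard error 0.30, adjusted p = 0.000399 from limma), and a second spot of the same sequence differed by 2.75. The means of C57BL/6, 129X1/Sv and BALB/c were -0.76, -0.91 and -1.10, close to DBA/2. Against the mean of those 3 strains Clu was higher in FVB/N (adjusted p = 0.000294, limma on 20 arrays) and did not pass in DBA/2 (adjusted p = 0.904).

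Clusterin was 1 of 3 androgen-regulated genes past the test, all higher in FVB/N, of 11 measured (27.3%, against 3.64% of all genes called and 1.79% called higher). The median of the list was 0.34. The list does not separate genes that androgen raises from those that it lowers, such as Clu. Its median and the shared direction of its calls are therefore no measure of androgen action. Odc1, the rate-limiting enzyme of polyamine synthesis, was at 0.40, 0.01, 0.09 and 0.10 in FVB/N, against -0.68, -0.60, -0.75 and -0.38 in DBA/2 (1.68-fold higher in FVB/N, adjusted p = 0.00429 from limma), and of 3 other elements, 2 were called (0.73 and 0.65) and 1 was not (0.65, adjusted p = 0.0914). Herpud1, a component of protein degradation at the endoplasmic reticulum, was higher by 0.59 (adjusted p = 0.0319), a call lost without FVB/N pools 2, 3 or 4 or DBA/2 pools 1, 2 or 4 (adjusted p up to 0.0957). Fabp5, a fatty acid-binding protein, was at -0.12, -0.71, -0.56 and -0.15 in FVB/N, against 1.61, 0.35, 0.08 and 0.85 in DBA/2. These pools did not overlap, and the difference of -1.11 had an adjusted p of 0.0587, which became 0.00349 with the pool number as a block and lay between 0.0255 (without DBA/2 pool 3) and 0.141 with 1 pool left out (limma).

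Growth factors and their signalling genes held a single call among 46 measured (2.17%, near the 3.64% of all genes). Egf, epidermal growth factor, which the mouse prostate is known to make, was at -0.88, -0.96, -0.99 and -0.69 in FVB/N, against 0.15, 0.46, 0.26 and 0.37 in DBA/2, 2.28-fold lower in FVB/N (adjusted p = 8.58e-05 from limma). 129X1/Sv was as low as FVB/N (-0.98), and C57BL/6 (0.29) and BALB/c (0.41) were close to DBA/2.

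Genes of trafficking and cell division were also among the large negative differences. Mis12, a component of the kinetochore, was at -2.10, -1.92, -2.21 and -1.75 in FVB/N, against 0.72, 1.33, 1.44 and 1.17 in DBA/2 (8.95-fold lower in FVB/N, adjusted p = 7.31e-07 from limma). Rab6a, a small GTPase of the Golgi apparatus, was at -1.21, -1.77, -1.41 and -1.01 in FVB/N and 1.00, 1.06, 1.04 and 0.92 in DBA/2 (5.12-fold lower, adjusted p = 4.87e-06). In both genes C57BL/6 was close to DBA/2 (0.81 and 0.94) and 129X1/Sv and BALB/c were as low as FVB/N or lower. Cdk6, which encodes a cyclin-dependent kinase of the G1 phase, was the only other called gene of 46 in cell division and replication (4.35% called, near the 3.64% of all genes; -0.58, adjusted p = 0.00852), and it was not called when its elements were averaged: another element was called (-0.55) and 2 were not (-0.20 and -0.04).

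Vesicle traffic held 3 calls of 47, all lower in FVB/N (6.38%, against 3.64% of all genes called and 1.86% called lower). They were Rab6a, the vesicle SNARE gene Sec22b (-1.31) and the dynein light chain gene Dynlt1b (-1.05), with adjusted p = 0.000966 and 0.00447 for the last pair (limma). Sec22b was not called when its elements were averaged, and its 2 other elements differed by -0.05 and 0.34. Of 2 other elements of Dynlt1b, one was called (-0.44) and the other was not (-0.14). Slc12a2, the sodium-potassium-chloride cotransporter of secretory epithelia, was at -0.61, -1.02, -1.74 and -1.13 in FVB/N, against 0.78, 0.51, 0.40 and 0.14 in DBA/2 (2.99-fold lower in FVB/N, adjusted p = 0.00154). It was not called after quantile normalization or in a fit of all 20 arrays. Gpr83, a receptor coupled to G proteins, was at -0.71, -0.84, -0.83 and -1.15 in FVB/N and 1.12, 0.97, 0.77 and 0.89 in DBA/2 (3.53-fold lower, adjusted p = 7.32e-06).

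Sprr2a1, a small proline-rich protein of the cornified envelope, was at -1.92, -1.36, -1.58 and -1.85 in FVB/N, against 0.22, 0.44, -0.33 and 0.32 in DBA/2 (3.57-fold lower in FVB/N, adjusted p = 0.000135 from limma). It was the only one of 24 genes of keratins, junctions and barrier that passed (4.17%, near the 3.64% of all genes), and the family is repeated in the genome, so that related members may share the signal. The RNA gene Snhg11 was at -0.74, -0.83, -0.80 and -1.29 in FVB/N and 1.52, 1.64, 1.53 and 1.53 in DBA/2 (-2.47, adjusted p = 7.31e-07). Gm7714 had the widest spread of the 30 genes, at -1.37, -1.81, -0.07 and -1.24 in FVB/N and 2.78, 0.55, 0.60 and 0.79 in DBA/2. Its difference of -2.30 (adjusted p = 0.0236) was not called without FVB/N pool 1, 2 or 4 (limma, adjusted p = 0.0619, 0.0707 and 0.0637). Ms4a5, of the membrane-spanning family that includes CD20, differed by -1.79, 6330403K07Rik by -1.80 and 9530053A07Rik by -1.55 (adjusted p = 0.00154, 0.000131 and 2.84e-05); 3 further elements of 9530053A07Rik differed by -0.35, -0.38 and -0.09 and were not called.

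Among the other genes with large positive differences were several of little known function. Fam199x was at 0.05, 0.37, 0.16 and 0.26 in FVB/N, close to the reference, against -2.77, -1.86, -1.38 and -2.21 in DBA/2 (2.26, adjusted p = 0.000243 from limma). Tceanc2 differed by 1.32 and Gramd3 by 1.88 (adjusted p = 0.000162 and 6.5e-05), and in these 3 genes C57BL/6, 129X1/Sv and BALB/c all averaged above 0. The difference of Gramd3 rests on 1 element, since another differed by -0.02 and was not called. Rnf225, which encodes a RING finger protein, was at 1.15, 0.65, 0.99 and 1.35 in FVB/N, against -0.28, -0.11, -0.54 and -0.17 in DBA/2 (adjusted p = 0.000518), and the 3 other strains averaged between -0.57 and -0.54.

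Crip1, a small LIM-domain protein, was higher in FVB/N by 1.26 (adjusted p = 7.89e-05 from limma), with C57BL/6 lowest of the 5 strains at -1.44. Grhl2, a transcription factor of epithelial junctions, was higher by 1.25 (adjusted p = 0.000591), but 2 further elements differed by -0.10 and -0.13 and the call was lost when the elements were averaged. The cytokine gene Il18 was at 0.44, 1.28, 0.33 and 0.72 in FVB/N, against -0.41, -0.66, -0.47 and -0.34 in DBA/2 (2.23-fold higher in FVB/N, adjusted p = 0.00419). Among 28 chemokines, cytokines and receptors, 2 were higher (Il18 and the scavenging receptor Ackr3) and 2 lower (Il1r1 and the chemokine Ccl8), 14.3% of the list against 3.64% of all genes. The last 3 calls depended on single pools: Ackr3 (0.63, adjusted p = 0.0141) was not called on leaving out DBA/2 pool 1 or 3, Il1r1 (-0.44, 0.0374) without any one pool except DBA/2 pool 3, and Ccl8 (-0.92, 0.0465) likewise, with adjusted p up to 0.0514, 0.117 and 0.143 (limma). Each of the 3 had an element that was not called, at 0.59 for Ackr3, -0.38 for Il1r1 and -0.68 for Ccl8.

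The tissue markers were read next. None of 10 luminal, 3 basal, 11 smooth muscle, 7 endothelial, 6 leukocyte, 10 skeletal muscle and 5 nerve genes passed. Over all genes 3.64% passed, and at that share lists this short would often hold no call. The summed luminal level of a pool, as the mean over its 10 genes, was -0.17 to -0.06 in FVB/N and -0.10 to -0.06 in DBA/2. The luminal genes had 6 positive and 4 negative differences, from -0.67 for Ehf, an epithelial transcription factor, to 0.21 for Tspan1, a tetraspanin (adjusted p = 0.126 and 0.549 from limma). Krt18, a keratin of luminal cells, differed by 0.07 and Epcam, an epithelial adhesion molecule, by -0.07 (adjusted p = 0.773 and 0.772).

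Genes of the matrix held calls. Of 21 genes of fibroblasts and matrix, 4 were lower and none higher in FVB/N, with a median of -0.15. This was 19% of the list, against 3.64% of all genes called and 1.86% called lower. Col6a3, a chain of collagen VI, was at -1.27, -1.27, -0.77 and -1.15 in FVB/N, against 1.13, 0.50, 0.63 and 0.69 in DBA/2 (3.61-fold lower in FVB/N, adjusted p = 5.13e-05 from limma). Eln, which encodes elastin, was at -0.35, -0.77, -0.20 and -0.48 in FVB/N and 0.78, 0.48, 0.45 and 0.41 in DBA/2 (1.97-fold lower, adjusted p = 0.00173). Sparc, a matrix glycoprotein, and Col3a1, a chain of collagen III, were also lower, with differences of -0.50 and -0.47 (adjusted p = 0.0207 and 0.0368). The call of Sparc was lost without FVB/N pool 3 or 4 or DBA/2 pool 1, 2 or 4, and that of Col3a1 without any one pool except FVB/N pool 3, with adjusted p up to 0.0754 and 0.118. Of 2 other elements of Col3a1, one was called (-0.60) and the other was not (-0.49).

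Other members of the matrix list did not pass. Col1a1, Col1a2 and Col6a1 differed by -0.58, -0.22 and -0.29 (adjusted p = 0.0652, 0.247 and 0.334), Dcn, the proteoglycan decorin, by 0.22 and Fn1, fibronectin, by 0.38, none past the test (limma). The mean over the 21 genes was -0.18 to -0.05 in the FVB/N pools and 0.06 to 0.16 in the DBA/2 pools. The study measured the area of stroma and epithelium by lobe in a few prostates of each strain. It reported no significant difference between strains in cell type ratios, without showing the data. The part of fibroblast number in the differences given here was not tested.

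Markers of tissues next to the gland were measured by few genes. Upk1b, the one measured uroplakin of the bladder lining, was at -1.09, -1.13, -1.30 and -0.75 in FVB/N and 0.19, -0.06, -0.12 and 0.01 in DBA/2, 2.10-fold lower in FVB/N (adjusted p = 0.000599 from limma). Hbb-b1, an adult beta-globin close in sequence to other globins, was at 0.14, 0.66, 0.34 and 0.91 in FVB/N and -0.86, -0.60, -0.42 and -0.34 in DBA/2, 2.10-fold higher in FVB/N (adjusted p = 0.00440). Retn, the adipocyte hormone resistin, was lower in FVB/N (-0.61, adjusted p = 0.00972 from limma), 1 of 5 adipose genes (20% called, against 3.64% of all genes). Whether the amount of urethral lining, blood or fat differed between the pools was not tested.

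**Figure D3:**
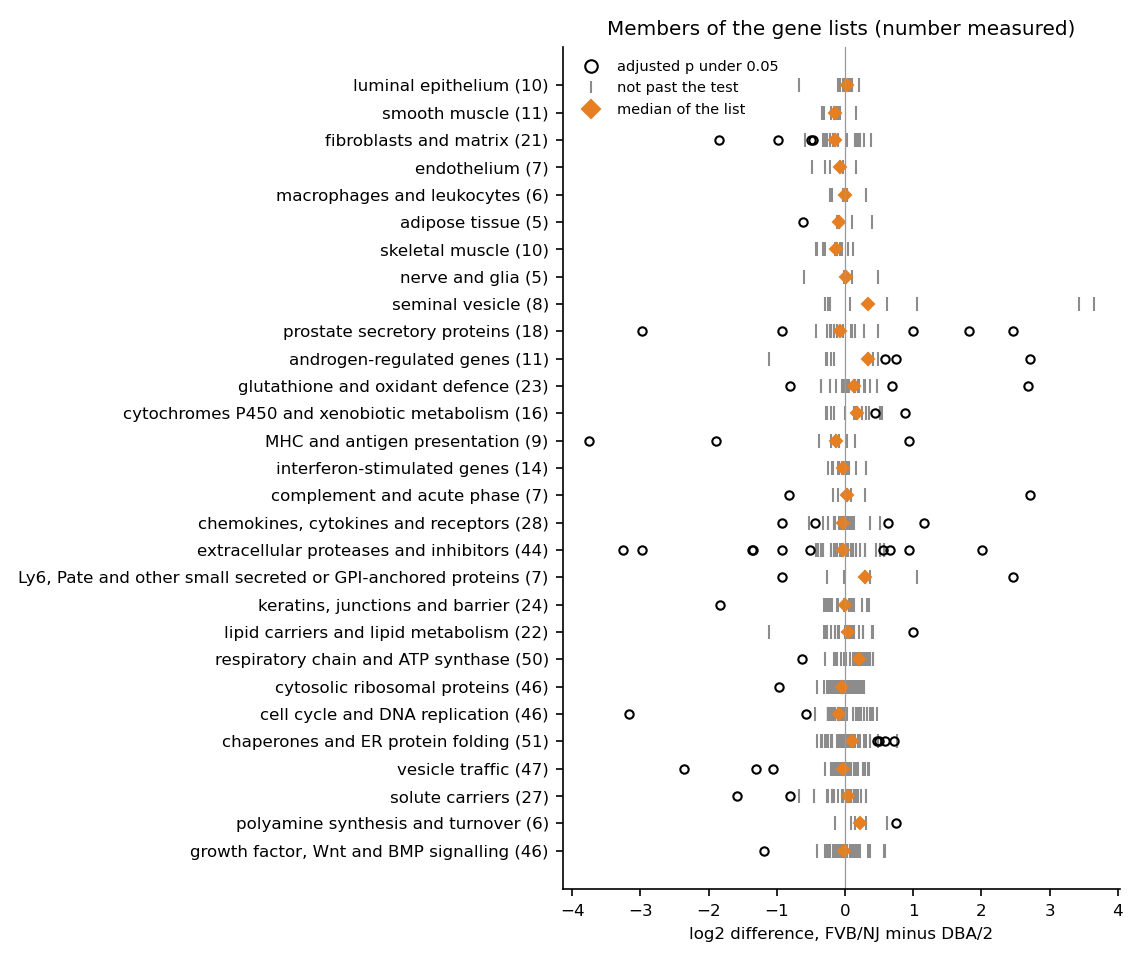
Difference of each measured list member (horizontal axis, log2, FVB/N minus DBA/2), for lists with 5 or more measured members; open circles passed the test, ticks did not, and the diamond is the median. The share called ranges from 0 in several lists of tissue markers to 33.3% (3 of 9) in antigen presentation, and the respiratory chain has a median of 0.20 with 1 call. The lists were written with earlier results of these data known, so the shares have no test.

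Genes of the seminal vesicle varied widely among the pools of FVB/N. Svs2 and Svs5 encode seminal vesicle secretory proteins, the bulk of the copulatory plug, and Pate4 a small protein of the same organ. Svs2 was at 0.12, -6.84, -0.36 and -1.26 in FVB/N pools 1 to 4, against -3.46, -6.16, -6.88 and -6.46 in DBA/2 pools 1 to 4. FVB/N pool 2 was as low as DBA/2, and the other FVB/N pools lay above every DBA/2 pool. The difference of 3.66 had a standard error of 1.32 and did not pass (adjusted p = 0.188). Of 4 further elements, which differed by 3.06 to 3.84, 1 was called (adjusted p = 0.0368, limma), though its pools overlapped as well.

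Svs5 was also low in FVB/N pool 2, at -0.05, -4.89, -0.18 and -0.82 in FVB/N and -3.99, -4.56, -5.16 and -5.99 in DBA/2 (3.44, adjusted p = 0.0655, or 0.0289 with the pool number as a block, limma). Pate4 was at 0.15, -3.89, -0.13 and -0.99 in FVB/N and -2.14, -2.51, -2.56 and -1.85 in DBA/2, with FVB/N pool 2 below every DBA/2 pool (adjusted p = 0.495). Without FVB/N pool 2 the differences were 5.24 for Svs2, 4.57 for Svs5 and 1.95 for Pate4, and all 3 passed (adjusted p = 0.0024, 0.000186 and 0.00242, limma). That pool held the lowest FVB/N values of these same genes. Leaving it out therefore favours a call, and these p-values are no test of the strains. None of the 8 seminal vesicle genes passed with all pools, where 3.64% of all genes did. Svs1, Svs6, Sva and Svs4 differed by -0.22, -0.30, -0.25 and 0.07. The last, Svs3b, differed by 0.61, with an adjusted p of 0.118, or 0.00644 with the pool number as a block (limma). Members of the Svs family share sequence and an element may not tell them apart. The mean over the 8 genes was -0.41, -2.77, -0.47 and -1.05 in FVB/N pools 1 to 4, against -1.96, -2.18, -2.41 and -2.18 in DBA/2 pools 1 to 4. Without FVB/N pool 2, 346 elements differed between the strains, 315 of them among the 416. The part of seminal vesicle tissue in the pools was not tested.

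**Figure D4:**
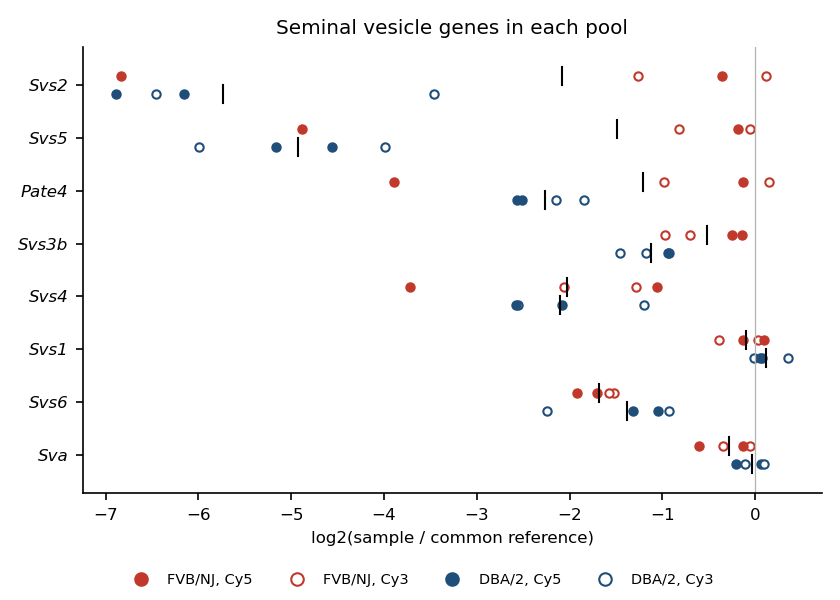
Level of each pool (horizontal axis, log2 ratio to the common reference) for the 8 measured seminal vesicle genes; FVB/N in red above DBA/2 in blue, filled for Cy5 and open for Cy3, black bars at the means. FVB/N pool 2 is the lowest FVB/N point of Svs2 (-6.84), Svs5 (-4.89), Pate4 (-3.89) and Svs4 (-3.72), far from the other 3 pools.

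Housekeeping groups held few calls (2.00% of the respiratory chain and 2.17% of ribosomal protein genes, near the 3.64% of all genes). Of 50 genes of the respiratory chain and ATP synthase, 42 had positive differences and the median was 0.20, but only Ndufv3, a subunit of complex I, passed, and it was lower in FVB/N (-0.63, adjusted p = 0.0368 from limma). That call was lost without FVB/N pool 3 or any one DBA/2 pool (adjusted p up to 0.0966). Atp5o, a subunit of ATP synthase, and Cox7a2, a subunit of cytochrome oxidase, differed by 0.41 and 0.37 (adjusted p = 0.114 and 0.130). Of 46 cytosolic ribosomal protein genes, Rps3 alone passed, at -0.39, -0.08, -0.33 and -0.53 in FVB/N and 0.43, 0.72, 0.96 and 0.46 in DBA/2 (1.96-fold lower in FVB/N, adjusted p = 0.00231). A second element of Rps3 differed by -0.18 and was not called (adjusted p = 0.368, limma).

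Chaperones and protein folding genes of the endoplasmic reticulum held 4 calls of 51, all higher in FVB/N, with a median of 0.10. This was 7.84% of the list, against 3.64% of all genes called and 1.79% called higher. The small heat shock protein gene Hspb8 was at 0.13, 0.38, 0.46 and 0.34 in FVB/N, against -0.54, -0.41, -0.46 and -0.17 in DBA/2 (1.65-fold higher in FVB/N, adjusted p = 0.00405 from limma). Hspa8, the constitutive Hsp70, Syvn1, the ubiquitin ligase of endoplasmic reticulum degradation, and Herpud1 were higher by 0.46, 0.50 and 0.59 (adjusted p = 0.0188, 0.0247 and 0.0319). Of these, Hspa8 was not called when FVB/N pool 4 or DBA/2 pool 1, 2 or 3 was left out, nor Syvn1 without any one pool except FVB/N pool 2 (adjusted p up to 0.0729 and 0.0937). Hspa5, the chaperone BiP, differed by 0.48 and Canx, calnexin, by -0.0043 (adjusted p = 0.198 and 0.996).

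Further genes that the study names among the strains were read in the same way. Psca, prostate stem cell antigen, was at 0.08, 0.07, 0.07 and 0.34 in FVB/N and -0.30, 0.12, -0.35 and -0.41 in DBA/2 (0.37, adjusted p = 0.175 from limma). Ly6e, which the study does not name and which belongs to the same family, was at 0.07, -0.21, 0.05 and 0.09 in FVB/N and 0.99, 0.72, 0.74 and 1.23 in DBA/2, 1.89-fold lower in FVB/N (adjusted p = 0.00219). Pttg1, securin, differed by -0.15 and Cap1, a regulator of actin, by -0.07 (adjusted p = 0.471 and 0.740). The chemokine gene Cxcl12 differed by -0.08, the oestrogen receptor gene Esr1 by -0.03 and the retinol carrier gene Rbp4 by -0.21, none past the test. Further elements of Esr1 differed by 0.51, 0.44 and -0.12 (adjusted p = 0.124, 0.224 and 0.955, limma). Those of Rbp4 differed by -0.49 and -0.03 (adjusted p = 0.0547 and 0.942, limma).

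**Figure D5:**
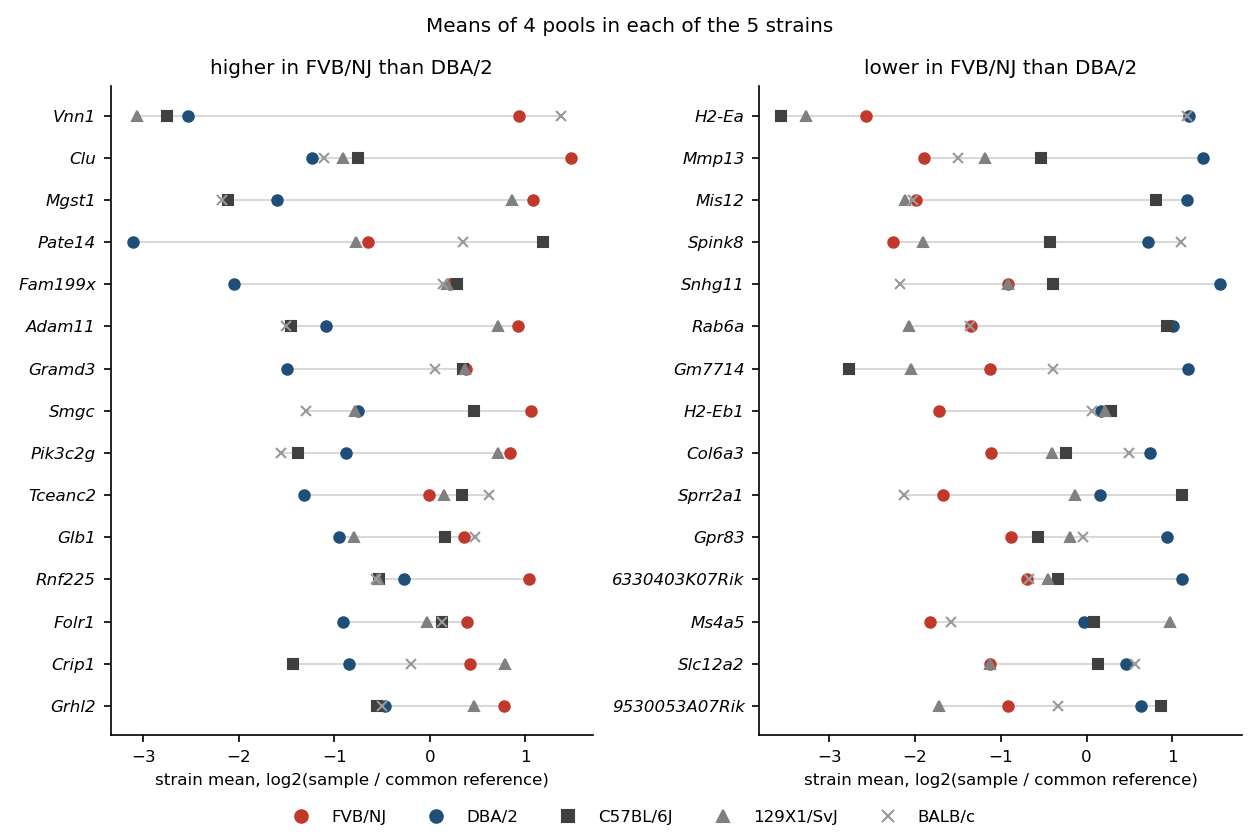
Means of 4 pools (horizontal axis, log2 ratio to the common reference) in the 5 strains for the 15 genes most higher (left) and 15 most lower (right) in FVB/N. FVB/N and DBA/2 are the coloured circles; in 7 of the 30 genes they lie at opposite ends beyond the other 3 strains.

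The other 3 strains were set beside each difference. Against their mean, 265 elements (2.37%) differed in FVB/N and 218 (1.95%) in DBA/2 (limma on 20 arrays); both contrasts use the same 12 arrays of the other strains. With the arrays scaled to equal spread the counts were 406 for FVB/N and 449 for DBA/2, the opposite order. The first count was 178, 168, 186 and 182 without FVB/N pools 1, 2, 3 and 4. The second was 142, 124, 139 and 165 without DBA/2 pools 1, 2, 3 and 4. Of the 416 elements that differed between FVB/N and DBA/2, 124 passed for FVB/N alone, 102 for DBA/2 alone, 20 for both and 170 for neither. By means, FVB/N alone lay outside the range of the other 3 strains in 113, DBA/2 alone in 100, and both at opposite ends in 131, which is 31.5% of the 416, against 8.80% of all elements tested. Opposite ends are favoured by the choice of elements that differ, so that this share has no test.

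The nearest strain varied from element to element. C57BL/6 and 129X1/Sv shared a supplier with FVB/N, and BALB/c shared one with DBA/2. The part of supplier in the counts that follow was not tested. C57BL/6 lay nearer to DBA/2 in 235 of the 416 elements (56.5%, against 55.2% of all elements), 129X1/Sv in 199 (47.8%, against 49.2%) and BALB/c in 225 (54.1%, against 49.7%). All 3 lay nearer to DBA/2 in 90 elements and all 3 nearer to FVB/N in 71. Of the 30 most different genes, FVB/N alone lay outside the other strains in 8 (Mgst1, Adam11, Smgc, Pik3c2g, Grhl2, Spink8, H2-Eb1 and Ms4a5), DBA/2 alone in 8 (Pate14, Fam199x, Glb1, H2-Ea, Mis12, Snhg11, Rab6a and Gm7714), and both at opposite ends in 7 (Clu, Gramd3, Folr1, Mmp13, Col6a3, Gpr83 and 6330403K07Rik). These places compare means without a margin, and some means lay close together. For H2-Ea, DBA/2 averaged 1.19 and BALB/c 1.17, and for Rab6a, DBA/2 averaged 1.01 and C57BL/6 0.94. For Gramd3, FVB/N averaged 0.38 and 129X1/Sv 0.36, and for Adam11 these strains averaged 0.92 and 0.71.

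Some of the genes that differed lie side by side. In the RefSeq order of 5715 measured genes, 20 pairs of neighbours were both called, where 3.64% of all genes were called. Of these pairs, 12 went in the same direction. The others went in opposite directions, among them Glb1 with Cmtm6 (1.31 and -0.62), Serpinh1 with Rps3 (0.56 and -0.97) and Ndufv3 with Cbs (-0.63 and 0.93). Besides H2-Eb1 with H2-Ea and Mgst1 with Pik3c2g, the pairs in the same direction were led by Mis12 with 6330403K07Rik (-3.16 and -1.80), Gramd3 with the aldehyde dehydrogenase gene Aldh7a1 (1.88 and 0.43), and Egf with the phospholipase gene Pla2g12a (-1.19 and -0.81). The call of Aldh7a1 was lost without any one pool except FVB/N pool 4 (adjusted p up to 0.0971 from limma). The pairs were listed after the calls were known and have no test.

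Repeat measurements within the array bear on single calls. Of the 212 genes called, 71 had other elements, 104 in all, of which 97 had the same sign and 52 were called in the same direction, while none was called in the opposite direction. In 28 of these genes no other element was called. Elements of the same sequence are repeat spots and not independent. A further 107 called elements had no single gene name, and 5 of them differed more than 4-fold.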

How the data were processed

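Prostate RNA pools of each strain were hybridized on 2-colour spotted cDNA arrays of 1 printing batch against a common reference RNA of all strains. The authors read the scans with GenePix Pro 4.1, subtracted the median background, normalized each array by print-tip loess and deposited log2 ratios of sample to reference with missing values for poor spots. The deposited values are sample over reference in both dye directions, and differences between the dyes remained in them. No intensities were used here, so the low-abundance filter of the study could not be applied. Precision is limited by having 4 arrays per strain.

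An element was kept (11159 of 11552) if no more than 3 of its 20 values were missing and each strain had 2 or more. FVB/N was compared with DBA/2 on the 8 arrays with limma 3.58.1 in R 4.3.3 (lmFit and eBayes, Benjamini-Hochberg over all elements, adjusted p under 0.05), without a block. Missing values were left out of a fit and not imputed. For each gene the element with the fewest missing values among those with a single symbol stands for it. Symbols came from the platform annotation, and 7880 gene identifiers were matched to the RefSeq table of GRCm38.p6. The named genes were the 15 with the largest positive and the 15 with the largest negative difference among called genes whose pools did not overlap, called members of the gene lists, genes that the study names, and the 5 of these with the widest spread among pools. Other list members and neighbours given as examples were chosen after their values were seen. Members and lists were chosen with earlier results of these data known. Promoters came from RefSeq (GRCm38.p6). On simulated data with 11159 elements, 97 of 100 elements changed by 1 on the log2 scale and 100 of 100 changed by 2 were found, and 7.51% of calls were false. The simulated noise was normal and independent among arrays, without the dye differences of the data. The median size of the 416 calls was 0.72 on the log2 scale, below both sizes simulated. These shares therefore do not describe the calls given here.

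Pools are numbered in the labels. Same-numbered pools of the 2 strains deviated together (correlations of 0.380, 0.387, 0.279 and 0.304), but they also share a dye, and other pairs with the same dye reached 0.187 to 0.372. Alternatives included a block, a dye term, other scalings, other filters, each dye alone and each pool left out.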

Additional observations from a re-analysis of the deposited data

Results flagged for a closer look

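Of 170 groups of 4 pools (85 genes in each of the 2 strains), 9 held a pool far from the other 3, where chance flags about 1 in 20 groups. The value given for each is the gap to the nearest pool as a share of the range of the group.

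In FVB/N, pool 2 stood apart in 4 genes. Mmp13 was at -2.13 there, against -1.83 to -1.80 in the other pools (0.919). Svs5, of the seminal vesicle, was at -4.89 against -0.82 to -0.05 (0.841). Adh1 was at 0.74 against 0.34 to 0.40 (0.868), and Ly6e at -0.21 against 0.05 to 0.09 (0.886). FVB/N pool 4 stood apart in Psca, at 0.34 against 0.07 to 0.08 (0.960), and in Snhg11, at -1.29 against -0.83 to -0.74 (0.839).

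In DBA/2, pool 1 stood apart in Gm7714, at 2.78 against 0.55 to 0.79 (0.892), pool 2 in Snhg11, at 1.64 against 1.52 to 1.53 (0.931), and pool 3 in Sparc, at 0.01 against 0.22 to 0.26 (0.855). The cause was not tested for any of them.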

How the results depend on the processing

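The 416 elements became 719 with a dye term, 661 with the replicate block, 201 without moderation, 235 on the Cy3 arrays and 172 on the Cy5 arrays alone, and 700 by SAM (35 relabellings, 11146 elements); with the elements of a gene averaged, 239 of 5820 genes passed. Leaving out 1 pool gave 253 (without DBA/2 pool 2) to 386 (without FVB/N pool 3). The pool number as a block ended no call of a named gene and added Fabp5, Svs5 and Svs3b (adjusted p = 0.00349, 0.0289 and 0.00644, limma). Against the other 3 strains, the 265 elements of FVB/N became 406 and the 218 of DBA/2 449 with arrays scaled, and leaving out 1 pool gave 168 to 244 and 124 to 207. Of the 66 called genes recomputed under each setting, 51 kept their call without any one pool. Differences that changed sign were small in the comparison with all pools: Sbp (-0.0027 on Cy5 arrays, -0.035 to 0.29 with pools left out), Cxcl12 (0.016 averaged, 0.023 on Cy5 arrays), B2m (-0.071 with array weights, -0.038 on Cy5 arrays, -0.085 to 0.18 with pools left out), Esr1 (0.029 scaled, 0.032 quantile, 0.055 with array weights, 0.22 averaged, 0.13 on Cy3 arrays, -0.11 to 0.15 with pools left out), Svs6 (0.035 on Cy3 arrays) and Svs4 (-0.055 quantile, -0.063 on Cy5 arrays, -0.25 to 0.63 with pools left out). The cause was not tested.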
